A study of Mus musculus with 9 samples.

Results

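The 10 genes described here encode Notch receptors (Notch1, Notch2, Notch3), the ligands that bind them (Dll1, Dll3, Dll4, Jag1, Jag2) and enzymes that modify the receptors with sugars (Mfng, Lfng). They were chosen by name, matched to the Ensembl identifiers of the deposited table, and all 10 of the 37224 listed genes were found once and passed the filter on low counts. RNA sequencing measured them in 3 groups of 3 libraries, all from C57BL/6 mice. iGABA cells were fibroblasts taken through 14 days in culture of conversion toward GABAergic interneurons, of which 2 were in fibroblast medium. The study is known to have delivered transcription factors to these cells. GAD67 cells were interneurons taken directly from the cortex at E18.5 and carried GFP as a reporter of Gad1. MEF cells were primary fibroblasts of E13.5 at passage 0, with a label that also mentions a shift to neuronal inducing medium. iGABA and GAD67 cells were sorted for GFP before extraction and MEF cells were not. The labels give neither the promoter behind the GFP of iGABA cells nor the number of embryos or cultures behind a library, so the spread behind each p-value may be technical.

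Notch receptors are cut after a ligand on a neighbouring cell binds them, and the freed part enters the nucleus, where it joins the DNA-binding protein Rbpj and switches on genes such as Hes1 and Hes5. In the embryonic brain, cells that begin to form neurons carry Delta ligands and hold their neighbours in a progenitor state through this route. Fringe enzymes extend a sugar on the receptor, and Lfng and Mfng thereby shift its response toward Delta and away from Jagged ligands.

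Library totals ran from 27501521 to 38975523 counts, and the libraries of a group differed by more than counting noise in every pair (lowest chi-square per gene 2.45). All 7 markers of cortical interneurons were at 1 CPM or more in iGABA and in GAD67 libraries. They summed to 671 to 684 CPM in iGABA, 4032 to 4216 in GAD67 and 8.39 to 9.63 in MEF libraries. Gad1 made up most of the iGABA sum, with a mean of 405 CPM against 745 in GAD67 libraries. Gad2 averaged 9.45 CPM in iGABA and 514 in GAD67 libraries, and Slc32a1 averaged 2.83 and 186 CPM. The 6 fibroblast markers summed to 529 to 799 CPM in iGABA, 104 to 115 in GAD67 and 69151 to 76157 in MEF libraries. Unless stated otherwise, levels are normalised CPM, which are counts scaled to a common library size with TMM factors.

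Delta ligands, Jag2, Mfng, Lfng and Notch1 rose in converted cells against fibroblasts, and Notch3 and Jag1 fell. Of the 10 genes, edgeR's quasi-likelihood test with Benjamini-Hochberg adjustment called 7 higher and 2 lower in iGABA than in MEF cells at an adjusted p under 0.05, and 1 did not pass. In that comparison 81.9% of the 18085 genes tested were called, 42.1% as higher and 39.7% as lower, so the count of calls by itself says little. By size, where 27.1% of all genes were called at 4-fold or more, 6 of the 10 were at least 4-fold higher, against 13.1% of all genes, and 2 at least 4-fold lower, against 14.0%. The median log2 fold change was 3.01 over the 10 genes and 0.05 over all genes. In GAD67 against MEF cells 5 were called higher and 4 lower, where 86.9% of all genes were called, 43.1% as higher and 43.8% as lower. All 9 of those calls were at least 4-fold, against 36.8% of all genes, with 15.7% higher and 21.1% lower. In iGABA against GAD67 cells all 10 were called higher, where 80.6% of all genes were called, 41.3% as higher and 39.3% as lower. Of the 10, 6 were at least 4-fold higher, against 16.2% of all genes that were higher and 9.92% that were lower by that size, 26.1% in all. Each of the 3 groups enters 2 of these comparisons, so they are not independent. In bulk RNA, fewer cells with a transcript and less of it per cell cannot be told apart.

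**Figure D1:**
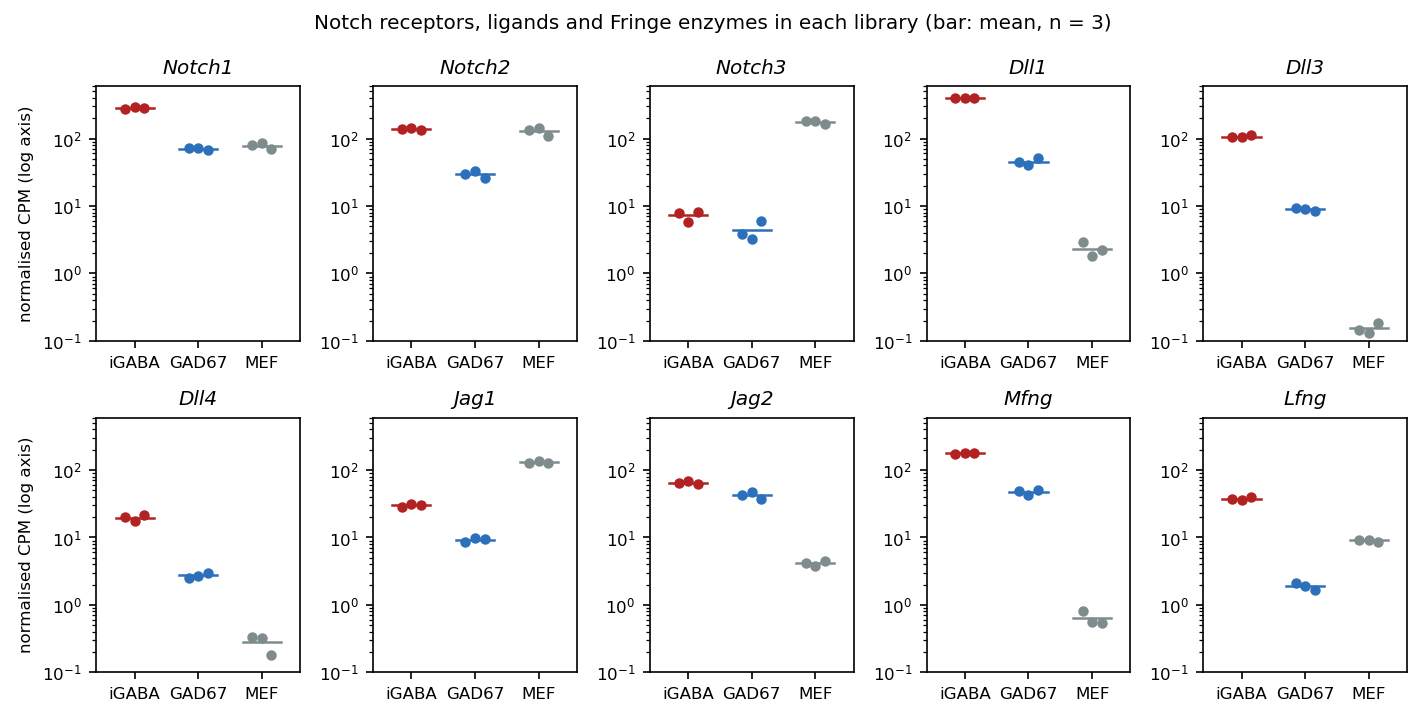
Level of each of the 10 genes in every library in normalised CPM on a log axis, with iGABA, GAD67 and MEF from left to right, points for libraries and bars for the mean of 3. Dll1 lay between 392 and 398 CPM in iGABA, between 39.8 and 51.9 in GAD67 and between 1.81 and 2.89 in MEF libraries, while Notch3 was highest in MEF libraries.

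Dll1 and Dll3 gave the highest levels per kilobase of the Delta genes in converted cells. Dll1 (ENSMUSG00000014773, mm10 chromosome 17, 15367354 to 15376872), the Delta ligand of newborn neurons that activates Notch on neighbouring cells, had 392, 398 and 395 CPM in iGABA libraries. It had 44.4, 39.8 and 51.9 CPM in GAD67 and 2.89, 1.81 and 2.20 CPM in MEF libraries. The 3 groups did not overlap, and the order was iGABA, GAD67, MEF. Dll1 rose 173-fold in iGABA against MEF cells (95% interval 141 to 212, edgeR, adjusted p = 4.83e-14) and stood 8.71-fold above GAD67 cells (edgeR, adjusted p = 6.9e-12). In GAD67 against MEF cells it was 19.8-fold higher (edgeR, adjusted p = 2.97e-12). The summed levels of 2 marker lists given here were also highest in iGABA libraries, and 1 gene made up most of each sum there. The 6 markers of glutamatergic cortical neurons summed to 272 to 282 CPM in iGABA, to 42.7, 35.7 and 59.4 CPM in GAD67 libraries, in the order of Dll1, and to 1.81 to 2.49 CPM in MEF libraries. In iGABA libraries Eomes averaged 273 CPM, and Neurod2 averaged 0.209 and Neurod6 0.00796 CPM. Of the 6, only 2 averaged 1 CPM or more in iGABA libraries, against 5 in GAD67 and 1 in MEF libraries. In MEF libraries Neurod2, Neurod6 and Emx1 had no count. The 7 markers of radial glia and astrocytes summed to 421 to 479 CPM in iGABA libraries, where Nes averaged 439 CPM. Their sums were 136 to 148 CPM in GAD67 and 116 to 125 in MEF libraries. Of the 7, only 3 averaged 1 CPM or more in iGABA libraries, against 5 in GAD67 and 4 in MEF libraries. Across GAD67 libraries the sums of the radial glia, endothelial and mural lists, the last 2 given below, followed the order of Dll1 as well. An order shared over 3 libraries is easily met. The part of glutamatergic neurons or radial glia in the Dll1 level was not tested.

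Dll3 (ENSMUSG00000003436, chromosome 7, 28293553 to 28302238), a divergent Delta protein that stays mostly inside the cell and dampens Notch signalling in it, had 104, 104 and 111 CPM in iGABA libraries. GAD67 libraries had 9.48, 8.99 and 8.36 CPM, and MEF libraries had 0.146, 0.132 and 0.181 CPM, from 4, 4 and 6 counts. No group overlapped another, and the converted cells were the highest. The difference of iGABA from MEF cells was 675-fold (edgeR, adjusted p = 3.49e-15), the largest fold among the 10 genes. With so few MEF counts the size of this fold is loosely set. Its interval from the fit is left out, being narrower than counting error allows. The difference was 11.9-fold between iGABA and GAD67 cells (edgeR, adjusted p = 7.24e-14) and 56.8-fold between GAD67 and MEF cells (edgeR, adjusted p = 5.58e-13).

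RefSeq promoter windows of build GRCm38.p6, from 250 bases before to 50 after an annotated start, were found for 9 of the 10 genes, with 10 windows in all. Mfng was not matched. They were searched on both strands for CAGCTG and for CAGGTG (E-box letters read by basic helix-loop-helix factors, the second as CACCTG on the opposite strand) and for TGGGAA (the core bound by Rbpj, TTCCCA on the opposite strand). CAGCTG was present in 16.3%, CAGGTG in 20.2% and TGGGAA in 25.6% of all 32851 windows of this length. The 4 windows that held any of the 3 are printed here on the strand of the gene with matches in capitals, because they pair 3 genes that rose in iGABA against MEF cells with 1 that fell.
Dll3, chr7:28301736-28302035, minus strand: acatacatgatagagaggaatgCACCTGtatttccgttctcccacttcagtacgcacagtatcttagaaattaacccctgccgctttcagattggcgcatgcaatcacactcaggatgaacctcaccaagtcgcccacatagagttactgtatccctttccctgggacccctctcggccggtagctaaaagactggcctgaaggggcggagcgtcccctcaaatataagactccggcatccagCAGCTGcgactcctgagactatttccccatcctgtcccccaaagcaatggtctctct
Dll1, chr17:15376883-15377182, minus strand: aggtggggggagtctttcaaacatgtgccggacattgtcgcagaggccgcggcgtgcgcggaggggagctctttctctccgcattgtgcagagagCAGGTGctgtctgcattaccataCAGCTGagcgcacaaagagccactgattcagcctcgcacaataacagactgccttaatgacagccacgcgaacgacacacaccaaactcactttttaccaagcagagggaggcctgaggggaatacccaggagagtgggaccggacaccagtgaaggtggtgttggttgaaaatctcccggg
Lfng, chr5:140607091-140607390, plus strand: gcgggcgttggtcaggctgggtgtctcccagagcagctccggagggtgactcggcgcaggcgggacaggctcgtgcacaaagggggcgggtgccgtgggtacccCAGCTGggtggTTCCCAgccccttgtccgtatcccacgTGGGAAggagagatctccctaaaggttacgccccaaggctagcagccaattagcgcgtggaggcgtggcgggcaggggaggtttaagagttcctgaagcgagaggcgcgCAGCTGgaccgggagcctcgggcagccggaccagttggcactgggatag
Jag1, chr2:137116471-137116770, minus strand: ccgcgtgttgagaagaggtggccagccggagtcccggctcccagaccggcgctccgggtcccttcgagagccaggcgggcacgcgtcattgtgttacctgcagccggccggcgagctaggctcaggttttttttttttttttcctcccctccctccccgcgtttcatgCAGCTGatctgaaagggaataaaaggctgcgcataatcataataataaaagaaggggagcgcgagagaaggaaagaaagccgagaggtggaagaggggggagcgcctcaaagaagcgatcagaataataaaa
The Dll3 window had CAGCTG 7 bases before its start and CACCTG 228 bases before it. The upstream window of Dll1 had CAGGTG 155 and CAGCTG 132 bases before its start, and a second Dll1 window further into the gene had none of the 3. Lfng had CAGCTG 146 bases before and 2 bases after its start, and the Rbpj core 135 and 108 bases before it, once on each strand. Jag1, which fell, also had CAGCTG, 82 bases before its start. None of the 3 was found in the windows of Notch1, Notch2, Notch3, Dll4 and Jag2, of which Dll4 and Jag2 rose at least 4-fold in iGABA against MEF cells. A match describes letters only and was not tested against the expression values.

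Dll4 (ENSMUSG00000027314, chromosome 2, 119325784 to 119335962), a Delta ligand best known from blood vessels, was the lowest of the Delta genes per kilobase in iGABA and GAD67 libraries. It had 20.0, 17.6 and 21.3 CPM in iGABA, 2.53, 2.73 and 2.94 CPM in GAD67, and 0.330, 0.329 and 0.181 CPM in MEF libraries. The groups did not overlap, and iGABA cells were 70.3-fold above MEF (edgeR, adjusted p = 4.68e-12) and 7.19-fold above GAD67 cells (edgeR, adjusted p = 2.61e-10). GAD67 cells were 9.79-fold above MEF cells (edgeR, adjusted p = 1.07e-08). The 8 endothelial markers listed summed to 2.99 to 5.60 CPM in iGABA, to 10.8 to 43.2 CPM in GAD67, and to 243 to 262 CPM in MEF libraries, where Flt1 alone averaged 228 CPM. Pecam1 averaged 0.296 CPM in iGABA, 3.71 in GAD67 and 0.243 in MEF libraries. Cdh5 and Tie1 had no count in iGABA libraries and averaged 3.35 and 2.42 CPM in GAD67, and 0.321 and 0.0311 CPM in MEF libraries. These 3 were thus higher in level in GAD67 than in MEF libraries, as Dll4 was, whereas the sum of all 8 was lower. By library the GAD67 sums were 24.0, 10.8 and 43.2 CPM, which is not the order of Dll4. The part of such cells in the GAD67 level of Dll4 was not tested. An overlapping gene on the opposite strand, Gm14207, shares 5.56% of the exon bases of Dll4 and had 482, 429 and 436 counts in iGABA, 2, 3 and 4 in GAD67, and 0, 0 and 0 in MEF libraries. The strand setting of the counting is not given in the sources used here, so reads of the shared stretch cannot be told apart.

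The Jagged ligands moved in opposite directions. Jag1 (ENSMUSG00000027276, chromosome 2, 137081456 to 137116644), a ligand of mesenchyme and vessel wall, had 28.8, 31.2 and 30.1 CPM in iGABA, 8.46, 9.89 and 9.40 CPM in GAD67, and 128, 136 and 127 CPM in MEF libraries. Fibroblasts were the highest and cortical interneurons the lowest, without overlap. Jag1 fell by 2.12 on the log2 scale in iGABA against MEF cells (edgeR, adjusted p = 4.36e-12) and by 3.82 in GAD67 against MEF cells (edgeR, adjusted p = 2.29e-14), and was 3.25-fold higher in iGABA than in GAD67 cells (edgeR, adjusted p = 1.03e-10). Scaled by library size alone, the fall in iGABA against MEF cells was 1.70, so that it was no longer 4-fold.

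Jag2 (ENSMUSG00000002799, chromosome 12, 112908590 to 112929495), the other Jagged ligand, had 63.9, 68.2 and 62.6 CPM in iGABA, 42.5, 46.8 and 37.3 CPM in GAD67, and 4.17, 3.78 and 4.50 CPM in MEF libraries. iGABA and GAD67 libraries both lay above MEF libraries, and this was the ligand whose level differed least between iGABA and GAD67 cells. The difference between them was 1.54-fold (95% interval 1.36 to 1.74, edgeR, adjusted p = 1.01e-05). Against MEF cells Jag2 was 15.6-fold higher in iGABA (edgeR, adjusted p = 9.44e-13) and 10.1-fold higher in GAD67 cells (edgeR, adjusted p = 2.49e-12).

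**Figure D2:**
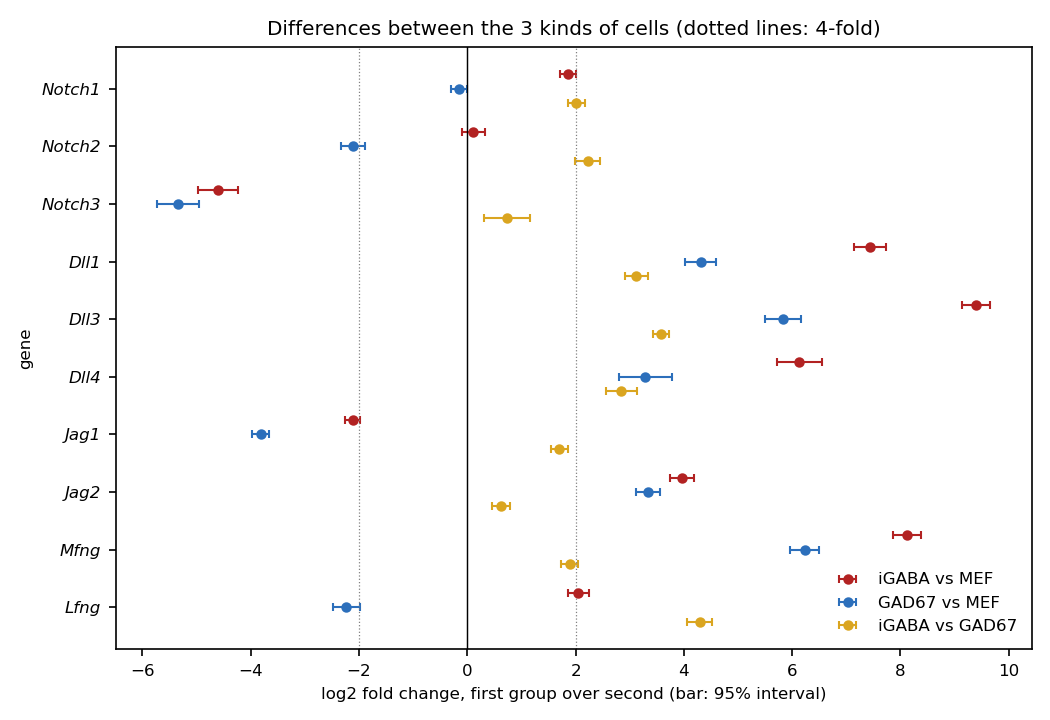
Log2 fold changes of the 10 genes with 95% intervals in the 3 comparisons, the first-named group over the second. Intervals against MEF are narrower than counting error allows for Dll3, Dll4 and Mfng, which had few MEF counts. Every point of iGABA against GAD67 lies right of 0, from 0.62 for Jag2 to 4.29 for Lfng, and Lfng lies right of 0 in iGABA against MEF (2.05) and left of it in GAD67 against MEF (-2.24).

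Among receptors, Notch1 rose in converted cells against fibroblasts, Notch2 did not pass the test there, and Notch3 fell in iGABA and in GAD67 cells. Notch1 (ENSMUSG00000026923, chromosome 2, 26457903 to 26516663), the main receptor of neural progenitors, had 278, 296 and 279 CPM in iGABA, 72.2, 71.5 and 67.5 CPM in GAD67, and 80.0, 85.5 and 69.6 CPM in MEF libraries. iGABA libraries were all above the other groups, which overlapped. The rise was 3.63-fold against MEF (edgeR, adjusted p = 4.62e-11) and 4.04-fold against GAD67 cells (edgeR, adjusted p = 2.2e-11). GAD67 and MEF cells did not differ past the threshold (log2 fold change -0.15, 95% interval -0.31 to 0.00, edgeR, adjusted p = 0.0578). That call changed with the setting: with edgeR and without MEF replicate 3 it gave -0.22 (adjusted p = 0.00427), and scaled by library size alone it turned to 0.068 (adjusted p = 0.384), the ends of the range over the alternatives. Genes on the opposite strand, 0610009E02Rik and Gm13568, share 7.50% and 2.91% of the exon bases of Notch1, with at most 87 counts in a library.

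Notch2 (ENSMUSG00000027878, chromosome 3, 98013538 to 98150367), a receptor of both neural and mesenchymal progenitors, had 139, 143 and 135 CPM in iGABA, 30.1, 33.3 and 25.9 CPM in GAD67, and 132, 144 and 110.2 CPM in MEF libraries. iGABA and MEF libraries overlapped, and GAD67 libraries lay below both. The iGABA to MEF difference did not pass (1.08-fold, 95% interval 0.931 to 1.25, edgeR, adjusted p = 0.316), and it did when scaled by library size alone (log2 fold change 0.52, edgeR, adjusted p = 0.000414, with a range of 0.000414 to 0.926 over the alternatives). Notch2 was 4.66-fold higher in iGABA than in GAD67 cells (edgeR, adjusted p = 3.22e-10) and fell by 2.11 on the log2 scale in GAD67 against MEF cells (edgeR, adjusted p = 3.24e-10). With library size alone that fall was 1.89, under 4-fold.

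Notch3 (ENSMUSG00000038146, chromosome 17, 32120820 to 32166880), the receptor best known from vessel mural cells, had 7.77, 5.73 and 8.22 CPM in iGABA, 3.78, 3.21 and 6.07 CPM in GAD67, and 180.2, 183 and 164 CPM in MEF libraries. MEF libraries stood far above, and iGABA and GAD67 libraries overlapped. Notch3 fell by 4.61 on the log2 scale in iGABA (edgeR, adjusted p = 2.52e-11) against MEF cells, and fell by 5.34 in GAD67 cells (edgeR, adjusted p = 5.68e-12). The remaining difference of iGABA over GAD67 cells was 1.66-fold (95% interval 1.24 to 2.23, edgeR, adjusted p = 0.00363). The 7 mural markers listed summed to 43.5 to 57.0 CPM in iGABA, 11.8 to 39.0 in GAD67 and 5074 to 5576 in MEF libraries, and none was without counts in any group. Single markers differed in order: Acta2 averaged 6.54 CPM in iGABA, 1.27 in GAD67 and 4710.3 in MEF libraries, whereas Rgs5 averaged 1.09 CPM in iGABA, 12.5 in GAD67 and 11.4 in MEF libraries. Kcnj8 and Abcc9 were also lower in level in iGABA than in GAD67 libraries. Within GAD67 libraries 7, 8 and 9 the sums were 22.8, 11.8 and 39.0 CPM, in the same order as Notch3. The sums of the endothelial, glutamatergic and radial glia lists had that order there too. In iGABA libraries 4, 5 and 6 the mural sums of 51.0, 43.5 and 57.0 CPM and the fibroblast sums of 691, 529 and 799 CPM also followed the order of Notch3. The fibroblast sums of GAD67 libraries 7, 8 and 9, at 115, 112 and 104 CPM, did not. An order shared over 3 libraries is easily met. The part of such cells in the Notch3 level was not tested. Without GAD67 replicate 9 the difference of iGABA over GAD67 cells was 1.03 on the log2 scale (edgeR, adjusted p = 1.15e-05, with a range of 1.15e-05 to 0.0204 over the alternatives), against 0.73 with it.

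The 2 Fringe genes were higher in iGABA than in GAD67 cells, as all 10 genes were. Mfng (ENSMUSG00000018169, chromosome 15, 78755882 to 78773475) encodes manic fringe and had 172, 176 and 179 CPM in iGABA, 48.6, 42.7 and 51.1 CPM in GAD67, and 0.806, 0.559 and 0.544 CPM in MEF libraries. All groups were apart, in the order iGABA, GAD67, MEF. It was 278-fold higher in iGABA than in MEF cells (edgeR, adjusted p = 8.62e-15) and 75.1-fold higher in GAD67 cells against MEF (edgeR, adjusted p = 3.53e-14). MEF libraries had 22, 17 and 18 counts, so the interval of the 278-fold difference, narrower than counting error allows, is left out. Mfng was 3.70-fold higher in iGABA than in GAD67 cells (edgeR, adjusted p = 3.86e-11).

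Lfng (ENSMUSG00000029570, chromosome 5, 140607341 to 140615543), or lunatic fringe, a Notch target in the segmenting embryo, had 37.3, 35.5 and 39.7 CPM in iGABA, 2.15, 1.94 and 1.64 CPM in GAD67, and 9.12, 9.31 and 8.67 CPM in MEF libraries. It was the 1 gene of the 10 called higher in iGABA and lower in GAD67 cells, both measured against MEF. With DESeq2, with RLE scaling or without MEF replicate 3, Notch1 was called so as well. The rise of Lfng was 4.15-fold (edgeR, adjusted p = 1.96e-10) and its fall was 2.24 on the log2 scale (edgeR, adjusted p = 4.58e-10). The direct difference of iGABA over GAD67 cells was 19.6-fold (95% interval 16.6 to 23.0, edgeR, adjusted p = 7.06e-13), the largest of the 10 genes in that comparison.

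Levels of different genes were compared per kilobase of the exon length in the deposited table. Summed over Dll1, Dll3, Dll4, Jag1 and Jag2, ligand transcripts reached 157 ± 1.81 CPM per kilobase in iGABA, 26.6 ± 0.186 in GAD67 and 24.0 ± 0.739 in MEF libraries (SD, n = 3). Delta genes held 86.5% ± 0.545 of the ligand sum in iGABA, 54.9% ± 4.78 in GAD67 and 2.80% ± 0.610 in MEF libraries. Dll1 alone held 59.5% ± 0.550 in iGABA and 40.4% ± 5.19 in GAD67 libraries, where Jag2 held 39.1% ± 4.61, and Jag1 held 92.9% ± 0.943 in MEF libraries. These shares do not depend on how libraries are scaled.

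Receptor transcripts, with Notch4 included, summed to 34.3 ± 0.903 CPM per kilobase in iGABA, 9.08 ± 0.316 in GAD67 and 39.7 ± 3.42 in MEF libraries. Notch1 held 58.2% ± 0.637 of them in iGABA, 54.5% ± 0.566 in GAD67 and 13.9% ± 0.260 in MEF libraries. Notch3 held 2.63% ± 0.542 in iGABA, 6.01% ± 2.32 in GAD67 and 55.2% ± 1.76 in MEF libraries. The iGABA and MEF sums were close in level and unlike in receptor: mostly Notch1 and Notch2 in iGABA, mostly Notch3 and Notch2 in MEF libraries.

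Fringe transcripts, with the third enzyme Rfng included, summed to 94.4 ± 1.71 CPM per kilobase in iGABA, 57.2 ± 3.25 in GAD67 and 11.1 ± 0.546 in MEF libraries. Mfng held 65.6% ± 0.485 in iGABA, 29.2% ± 1.07 in GAD67 and 2.00% ± 0.362 in MEF libraries. Lfng held 17.4% ± 0.757 in iGABA, 1.46% ± 0.224 in GAD67 and 35.6% ± 1.50 in MEF libraries. Rfng, or radical fringe, was the main Fringe transcript of both GAD67 (69.3% ± 0.895) and MEF libraries (62.4% ± 1.19), and held 17.0% ± 0.388 in iGABA libraries. On the CPM scale Rfng had 39.9 ± 0.345 in iGABA, 98.7 ± 4.42 in GAD67 and 17.3 ± 1.08 in MEF libraries, and was the Fringe gene that stood lower in iGABA than in GAD67 cells (log2 fold change -1.31, edgeR, adjusted p = 2.13e-10).

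**Figure D3:**
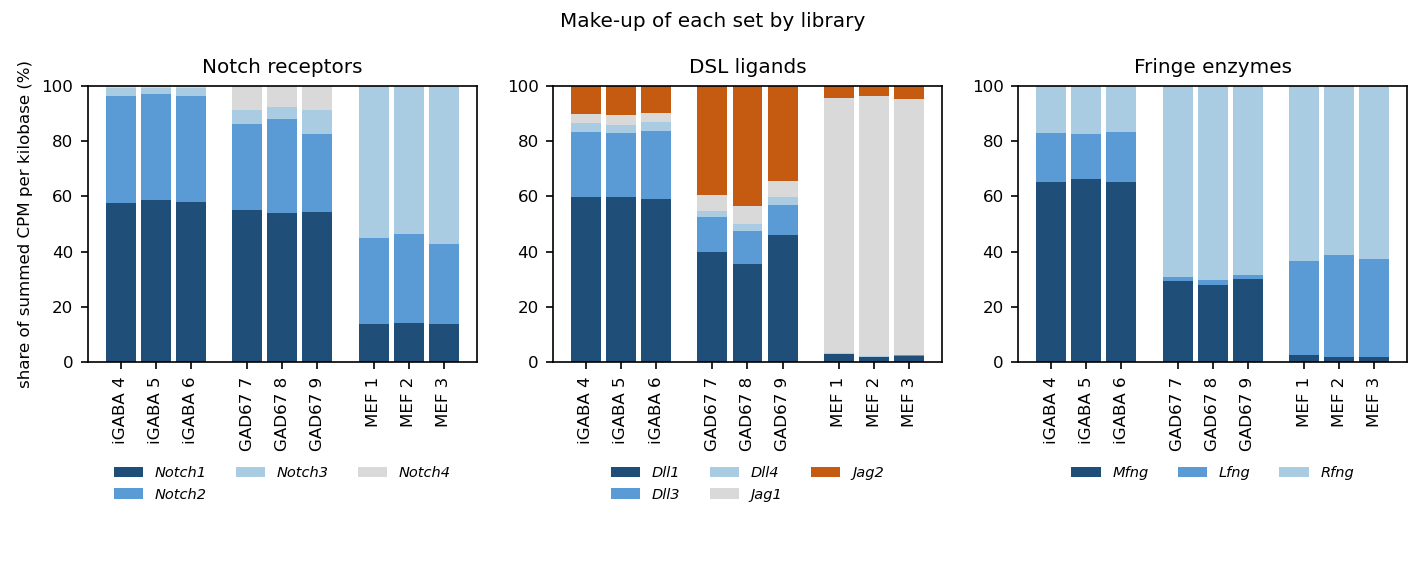
Share of each gene in the summed CPM per kilobase of its set, by library, with iGABA, GAD67 and MEF libraries from left to right. Jag1 fills 92.9% of the ligand bar in MEF libraries on average, Delta genes fill 86.5% in iGABA libraries, and Mfng is the largest Fringe block only in iGABA libraries.

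Of 44 other listed genes 43 were tested, and in iGABA against MEF cells 19 were called higher and 22 lower, with a median log2 fold change of -0.18 against 0.05 over all genes. The share called over all genes was 42.1% higher and 39.7% lower, so these counts lie near the background. In GAD67 against MEF cells 17 were higher and 22 lower, against 43.1% and 43.8% of all genes. In iGABA against GAD67 cells 19 were higher and 19 lower, against 41.3% and 39.3% of all genes. Of these, Snw1 changed sign with library size alone. It did not pass with no filter or without any 1 library of the 2 groups (edgeR, adjusted p = 0.0547 to 0.138). Slirp, on the opposite strand, shares 42.4% of the exon bases of Snw1. Heyl, also among the lower genes, did not pass with library size alone or in the fit of the 2 groups. Nor did it pass without iGABA replicate 5, GAD67 replicate 7 or GAD67 replicate 9 (edgeR, adjusted p up to 0.0995). At least 4-fold, 11 were higher and 3 lower in iGABA against MEF cells, against 13.1% and 14.0% of all genes.

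Of 4 ubiquitin ligases that let a cell pull on its ligands, 2 rose and 2 fell in iGABA against MEF cells. Over all genes 42.1% rose and 39.7% fell there. The fall of Mib2 turned upward with library size alone. It did not pass without MEF replicate 1 (edgeR, adjusted p = 0.167), iGABA replicate 4 or iGABA replicate 6. Neurl1a had 115 ± 3.81 CPM in iGABA, 5.96 ± 2.15 in GAD67 and 15.3 ± 0.860 in MEF libraries, 7.51-fold higher in iGABA than in MEF cells (edgeR, adjusted p = 1.5e-09). Neurl1b had 70.8 ± 5.32 CPM in iGABA, 19.6 ± 3.94 in GAD67 and 11.8 ± 0.816 in MEF libraries, 5.98-fold higher in iGABA than in MEF cells (edgeR, adjusted p = 5.16e-10). Notch4, a receptor of endothelium, stayed low at 2.05 ± 0.187 CPM in iGABA, 6.12 ± 0.341 in GAD67 and 0.477 ± 0.0641 in MEF libraries. Dner, a Delta-related membrane protein of neurons, had 459.7 ± 5.62 CPM in iGABA, 178 ± 11.4 in GAD67 and 38.4 ± 3.59 in MEF libraries. Dlk1, an imprinted Delta-like protein that lacks the part by which ligands activate Notch, had 6047 ± 102 CPM in iGABA, 15.1 ± 1.87 in GAD67 and 1420.1 ± 69.1 in MEF libraries, 400.1-fold higher in iGABA than in GAD67 cells (edgeR, adjusted p = 6.22e-15).

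Of 9 genes of receptor cleavage, 1 rose, 7 fell and 1 did not pass in iGABA against MEF cells. Over all genes 42.1% rose and 39.7% fell there, the shares to set beside each list in this paragraph. Aph1a and Psenen turned upward with library size alone. Ncstn did not pass under that scaling, and Psenen did not pass without MEF replicate 2, MEF replicate 3 or iGABA replicate 4. Car14, on the opposite strand, shares 15.5% of the exon bases of Aph1a, and reads of that stretch cannot be told apart. Car14 had 614, 764 and 490 counts in iGABA and 14, 14 and 21 in MEF libraries. The rise was Psen2, a gamma-secretase subunit named here after its value was seen, with 34.4 ± 1.74 CPM in iGABA, 6.18 ± 0.840 in GAD67 and 12.0 ± 0.643 in MEF libraries. Of 6 genes of the nuclear complex, 3 rose and 3 fell in iGABA against MEF cells, of which Maml1 did not pass with library size alone (edgeR, adjusted p = 0.738). Rbpj, the DNA-binding partner of the cut receptor, had 32.1 ± 1.84 CPM in iGABA, 48.2 ± 6.79 in GAD67 and 118 ± 4.34 in MEF libraries, a fall by 1.88 on the log2 scale in iGABA against MEF cells (edgeR, adjusted p = 3.55e-10). Among its coactivators, Maml2 had 5.66 ± 0.980 CPM in iGABA, 10.5 ± 2.22 in GAD67 and 36.2 ± 4.27 in MEF libraries. Maml3 rose in both comparisons with MEF cells, with 46.8 ± 2.32 CPM in iGABA, 82.0 ± 5.59 in GAD67 and 10.2 ± 0.455 in MEF libraries. Of 8 genes of turnover and inhibition, 2 rose, 5 fell and 1 did not pass in iGABA against MEF cells, and Numbl and Dtx2 turned upward with library size alone. Dtx2 did not pass without MEF replicate 2 or iGABA replicate 4. The ubiquitin ligase gene Dtx1 had 33.3 ± 2.05 CPM in iGABA, 171 ± 15.4 in GAD67 and 1.61 ± 0.0873 in MEF libraries. Of 4 other sugar transferases, Rfng among them, 3 rose and 1 fell in iGABA against MEF cells, none of them 4-fold. The rise of Eogt (log2 fold change 0.18, edgeR, adjusted p = 0.0242) did not pass with DESeq2 (adjusted p = 0.0516), with RLE scaling or without MEF replicate 3 or any 1 of the iGABA libraries. The fall of Pofut1 did not pass with library size alone (edgeR, adjusted p = 0.139).

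**Figure D4:**
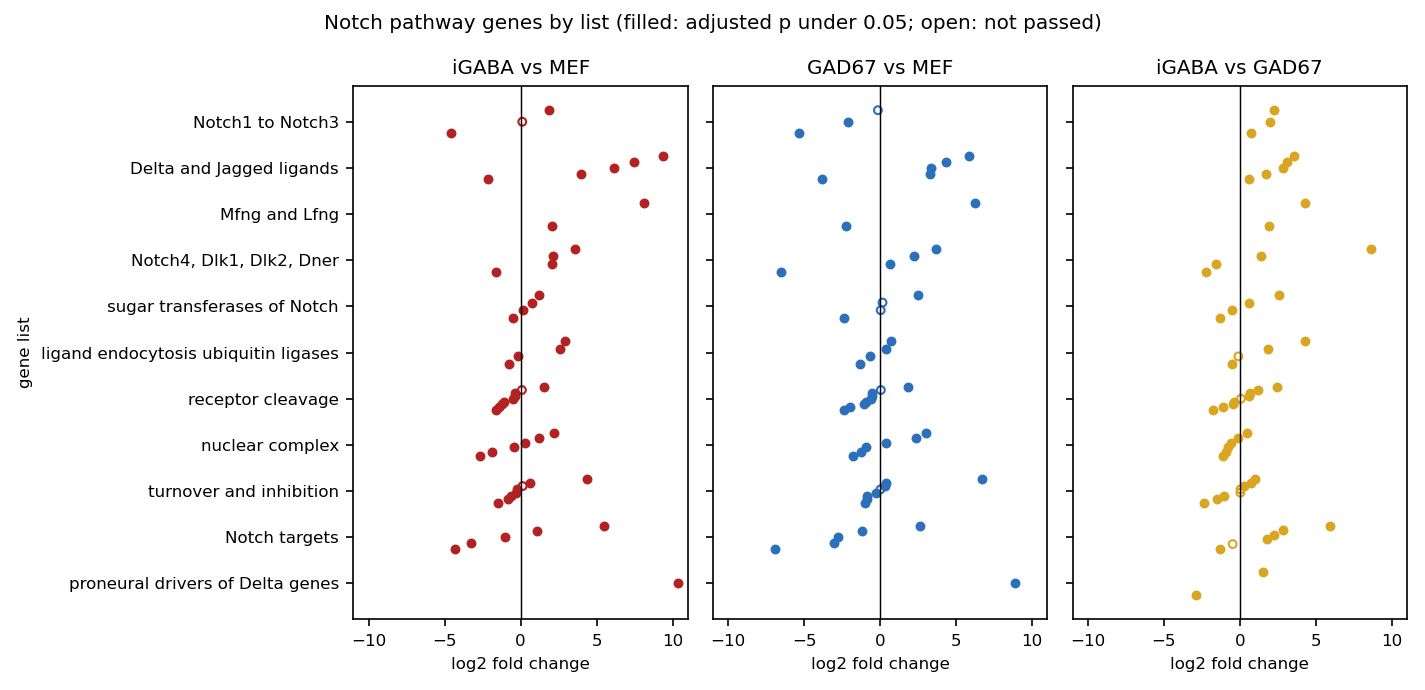
Log2 fold change of each tested gene by list in the 3 comparisons, the first-named group over the second, with filled points for an adjusted p under 0.05 and open points for genes that did not pass. Hes5 and Neurog2, with at most 2 counts in MEF libraries, are left out of both comparisons with MEF. Points of receptor cleavage lie mostly left of 0 against MEF cells, and 4 of the 5 Delta and Jagged points lie right of it.

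Of 6 genes that Notch switches on in other settings, 3 rose and 3 fell in iGABA against MEF cells, where 42.1% and 39.7% of all genes did. Hes5, the target most tied to neural progenitors, had 8.61 ± 1.01 CPM in iGABA and 2.45 ± 0.310 in GAD67 libraries, and 0, 0 and 2 counts in MEF libraries. The ratio of iGABA to MEF was 388 (exact 95% counting interval 107 to 3210.5), and a gene on the opposite strand, Gm20421, shares 31.8% of its exon bases. Nrarp, a target that feeds back on the nuclear complex, had 34.5 ± 1.0 CPM in iGABA, 4.75 ± 0.455 in GAD67 and 0.758 ± 0.257 in MEF libraries, 45.3-fold higher in iGABA than in MEF cells (edgeR, adjusted p = 2.41e-12). Heyl, a target of mural and mesenchymal cells, had 0.293 ± 0.161 CPM in iGABA, 0.699 ± 0.363 in GAD67 and 5.66 ± 0.772 in MEF libraries. Hey2 had 0.166 ± 0.0285 CPM in iGABA, 0.233 ± 0.0758 in GAD67 and 1.63 ± 0.206 in MEF libraries. Hes1, named after its values were seen, had 33.7 ± 2.38 CPM in iGABA, 0.551 ± 0.124 in GAD67 and 67.6 ± 4.03 in MEF libraries.

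Of the proneural factors listed, Insm1 had 221 ± 2.81 CPM in iGABA, 77.4 ± 2.55 in GAD67 and 0.160 ± 0.0843 in MEF libraries, and Neurog1 had no count in any library. Neurog2 had 0.346, 0.334 and 0.125 CPM in iGABA and 1.97, 1.11 and 3.16 CPM in GAD67 libraries, against no count in MEF libraries. That made it at least 8.48-fold higher in iGABA and at least 62.3-fold higher in GAD67 cells, set against 3 counts over the MEF libraries.

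For each of the 10 genes, the gene with the nearest pattern was the one whose centred log2 CPM over the 9 libraries had the smallest root mean square difference from it. Most of the variation lies between 3 groups, so many genes come close, and these are descriptions. The nearest gene to Dll3 was the potassium channel gene Kcnt1 (0.15), to Dll1 the zinc-finger factor gene Casz1 (0.24), to Dll4 the kinase gene Mapk4 (0.20), and to Mfng the serotonin receptor gene Htr3a (0.21). Kcnt1 averaged 318 CPM in iGABA, 31.9 in GAD67 and 0.639 in MEF libraries. Jag1 was nearest to the lysosomal protease gene Ctsb (0.09), and Notch3 to the basement membrane collagen gene Col4a1 (0.17), which averaged 77.7 CPM in iGABA, 48.2 in GAD67 and 1600.2 in MEF libraries. The others were nearest to Ctnnal1 (Notch1, 0.11), Myo6 (Notch2, 0.12), Coro2b (Jag2, 0.10) and Rom1 (Lfng, 0.15).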

How the data were processed

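RNA was measured in 9 libraries, and the authors deposited 1 table of whole-number counts per gene. Per the labels' protocols, libraries were dUTP stranded. The submitters' processing notes name BWA 0.7.2, featureCounts, DESeq 1.10.1 and mm10; neither annotation nor strand setting is given in sources used here. Symbols came from GENCODE vM21 names, found for 35449 of 37224 genes.

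Counts were fitted with edgeR 4.0.16 in R 4.3.3 (quasi-likelihood test, TMM, filterByExpr with a minimum count of 10, group as the only term, all 9 libraries), adjusted by Benjamini-Hochberg over 18085 genes and called at 0.05. The common biological coefficient of variation was 7.91%. A gene with no count is below 3 counts, or 0.0770 to 0.109 CPM by library, which covers counting error only. The fit was tested on simulated data. Some listed genes and markers are not reported here. The 10 genes and all lists were chosen with earlier results of these data known. Values are given for the 10 genes, for other listed genes called and at least 4-fold changed in iGABA against MEF cells, and for Notch4, Rfng, Rbpj and Hes5. Alternatives were DESeq2 1.42.0, other scaling, no filter, fits of 2 groups and leaving out each library. Promoter sequences are RefSeq's on GRCm38.p6.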

Additional observations from a re-analysis of the deposited data

How the results depend on the processing

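Of the alternative values of the 10 genes, 325 kept direction and side of the threshold, 4 moved past it and 1 reversed. For the other pathway genes 1361 kept both, 11 moved past the threshold, 34 dropped below it and 11 reversed. Scaling by library size alone shifted the median over all genes, on the log2 scale, to 0.46 in iGABA against MEF cells, to 0.22 in GAD67 against MEF cells and to 0.22 in iGABA against GAD67 cells. It moved the share of calls that were higher in iGABA against MEF cells to 65.3%, against 51.5% with TMM. Under it 8 values reversed. In iGABA against MEF cells these were Mib2 (0.23), Aph1a (0.058), Psenen (0.058), Numbl (0.13) and Dtx2 (0.21), in GAD67 against MEF cells Notch1 (0.068), and in iGABA against GAD67 cells Mib1 (0.098) and Snw1 (0.055). Leaving out 1 library in turn, Dtx4 in GAD67 against MEF cells ran from -0.079 (without GAD67 replicate 8) to 0.13, and was -0.029 without MEF replicate 1. In iGABA against GAD67 cells Itch ran from -0.037 to 0.13 and Dtx2 from -0.0028 to 0.071, both negative without GAD67 replicate 8. The cause was not tested. Leaving out 1 library of the compared groups in turn gave 14228 to 14445 genes called in iGABA against MEF cells, 15270 to 15730 in GAD67 against MEF cells and 13956 to 14565 in iGABA against GAD67 cells. Notch1 in GAD67 against MEF cells passed with DESeq2 (adjusted p = 0.0404) and with edgeR under RLE scaling (adjusted p = 0.0383). Among the 10 genes, at least 4-fold calls in iGABA against GAD67 cells numbered 5 to 7 over the alternatives. No paired analysis was possible because the groups share no replicate numbers. Depth limits Dll3, Dll4 and Mfng in MEF libraries, where counts per library were at most 22.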

Other observations

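The 10 genes differed in how closely the libraries of a group agreed. In iGABA libraries the coefficient of variation was 0.808% for Dll1 and 18.3% for Notch3, the lowest and the highest of the 10. In GAD67 libraries it was 13.4% for Dll1 and 34.8% for Notch3. In the 3 GAD67 libraries, numbered 7, 8 and 9, Dll1 held 39.8%, 35.6% and 45.9% of the ligand sum per kilobase and Jag2 held 39.7%, 43.5% and 34.3%. The ligand sum itself ran only from 26.4 to 26.8 CPM per kilobase in these libraries.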
